A study of Mus musculus with 60 samples.

Results

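The 5 genes described here encode neurotrophins and neurotrophin receptors: Bdnf (brain-derived neurotrophic factor) and Ntf3 (neurotrophin-3), the receptor tyrosine kinases Ntrk2 (TrkB) and Ntrk3 (TrkC), and Ngfr (the p75 neurotrophin receptor). They were chosen by gene symbol, and they are 5 of the 21950 protein-coding genes in the count table. RNA was sequenced from hippocampus, prefrontal cortex and striatum of Adgrl3 -/- mice (KO) and of Adgrl3 +/+ mice (WT), with 10 libraries for each genotype in each region and 60 in all. Adgrl3, also called Lphn3, encodes latrophilin-3, which belongs to the adhesion G protein-coupled receptors and sits on neurons. Each genotype had 12 mice, killed at 65 to 76 days of age, whose regions were separated by microdissection of frozen brains. The sources used here do not give sex, litter, batch or background strain, nor which stretch of Adgrl3 was altered. The study compared the genotypes within each region and over the regions combined.

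Neurotrophins are secreted growth factors that neurons make as precursors, which proteases cut to the mature form. BDNF acts mainly on TrkB and neurotrophin-3 mainly on TrkC, and both kinases signal through Ras-MAPK, PI3K-Akt and phospholipase C. The p75 receptor binds all neurotrophins and, with sortilin, their precursors. In adult brain Bdnf is made mostly by excitatory neurons and depends on their activity, while striatal cells receive much of their BDNF protein from cortical axons. Ntrk2 is transcribed in neurons and, as a form without kinase, in astrocytes, and p75 is known from basal forebrain cholinergic neurons.

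On GRCm38 the genes lie as follows. Bdnf (ENSMUSG00000048482.14) spans chr2:109674700-109727007 on the plus strand, and Ntrk2 (ENSMUSG00000055254.15) spans chr13:58806569-59133970 on the plus strand. On the minus strand, Ntf3 (ENSMUSG00000049107.13) spans chr6:126101412-126166910, Ntrk3 (ENSMUSG00000059146.12) chr7:78175959-78738012 and Ngfr (ENSMUSG00000000120.6) chr11:95568818-95587735. None of them is on the chromosome of Adgrl3, which is chromosome 5. The count table gives each gene by its start and end, and a count is taken here to cover that whole stretch, introns included. Transcripts with different first exons, and the kinase and truncated forms of TrkB and TrkC, are summed in a gene's count. Levels are CPM, reads relative to the scaled total of the library, which are not corrected for gene length, and a level is therefore compared only with levels of the same gene.

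RefSeq (GRCm38.p6) lists 7 start sites for Bdnf, 2 for Ntf3, 1 for Ntrk2 and 1 for Ngfr in the promoter table used here. The 250 bases before 2 of the Bdnf start sites are shown because the count merges transcripts from all of them. The first is the most upstream site, and the second holds the half-site TGACG of the cAMP response element (CREB's binding motif, searched on both strands), written in capitals as its reverse complement CGTCA, 35 bases before the start.
Bdnf, chr2:109674450-109674699, plus strand: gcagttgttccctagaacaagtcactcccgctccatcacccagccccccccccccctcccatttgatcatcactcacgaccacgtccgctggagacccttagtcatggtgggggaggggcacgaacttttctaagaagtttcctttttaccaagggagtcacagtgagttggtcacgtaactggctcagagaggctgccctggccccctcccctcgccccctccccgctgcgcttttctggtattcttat
Bdnf, chr2:109692186-109692435, plus strand: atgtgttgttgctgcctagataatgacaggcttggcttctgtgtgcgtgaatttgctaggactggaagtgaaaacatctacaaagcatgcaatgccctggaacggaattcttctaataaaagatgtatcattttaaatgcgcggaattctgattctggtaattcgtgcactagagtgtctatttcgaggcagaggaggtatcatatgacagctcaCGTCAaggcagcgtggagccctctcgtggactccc
The half-site was in 1 of the 7 Bdnf windows and in 17.8% of 32851 mouse windows of this length. It was in 0 of the windows of Ntf3, Ntrk2 and Ngfr. The full element TGACGTCA was in 1.55% of all windows and in 0 of those of the members, and a match or its absence says only which letters stand in these windows.

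The targeted gene and the dissections matched their labels. Adgrl3 ran from 16.5 to 44.2 CPM over the 30 KO libraries and from 116.6 to 175.6 CPM over the 30 WT libraries, with no overlap. Library totals were 38985577 to 51387833 counted reads. Lists of 10 marker genes for each region had their highest mean in that region: 5.44 in KO and 5.51 in WT hippocampus for hippocampal markers, 5.58 and 5.55 in prefrontal cortex for cortical layer markers, and 8.38 and 8.35 in striatum for striatal markers (mean log2 CPM). In some libraries marker genes of neighbouring tissue stood high, and those values are given beside the results they move with.

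Region separated the levels far more than genotype for each of the 5 genes, as for the median gene, and most of all for 3 of them. Of the variance of log2 CPM over the 60 libraries, differences between regions took 88.5% for Bdnf, 94.3% for Ntf3, 92.3% for Ngfr, 55.7% for Ntrk3 and 32.3% for Ntrk2, where the median of all genes kept was 58.0%. Genotype within region took 0.740%, 0.222%, 0.394%, 1.25% and 0.682% for the same genes in that order, and 1.83% for the median gene. The plot of levels by library shows all values.

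**Figure D1:**
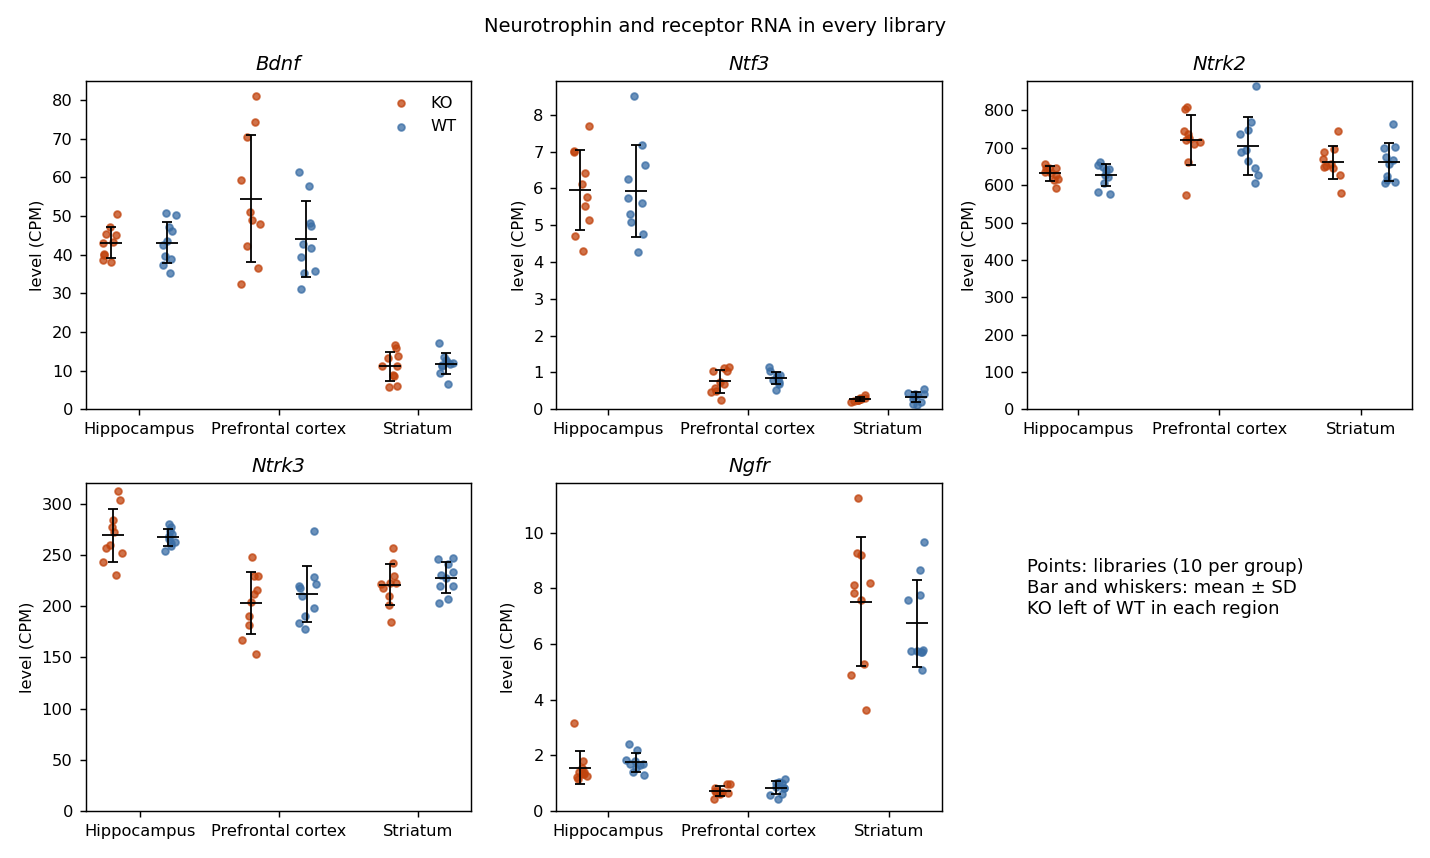
Level of each gene in CPM (vertical axis, starting at 0) in the libraries of each region (horizontal axis), with KO left of WT, 10 libraries per group, and the mean ± SD in black. Bdnf was low in striatum, Ntf3 high in hippocampus and Ngfr high in striatum in both genotypes, and KO and WT libraries overlapped in every panel.

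Among the ligands, Bdnf was lowest in striatum. Its lowest, median and highest levels in WT libraries were 6.64, 11.8 and 17.1 CPM in striatum, 35.2, 43.0 and 50.9 CPM in hippocampus, and 31.0, 42.2 and 61.5 CPM in prefrontal cortex. Every striatal library was below every library of the other regions, while hippocampus and prefrontal cortex overlapped. The log2 difference was -1.87 ± 0.13 (SE) for striatum against hippocampus and -1.90 ± 0.13 for striatum against prefrontal cortex (edgeR quasi-likelihood, adjusted p = 4.74e-14 and 3.08e-14). Hippocampus and prefrontal cortex differed by -0.03 ± 0.12 (95% interval -0.27 to 0.22, adjusted p = 0.854). In the KO libraries that last difference was -0.34 ± 0.16 (adjusted p = 0.0716). In bulk tissue, fewer cells that express a gene and less RNA per cell cannot be told apart.

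Ntf3 RNA was found mainly in hippocampus. Its lowest, median and highest levels in WT libraries were 0.128, 0.382 and 0.560 CPM in striatum, 4.26, 5.67 and 8.50 CPM in hippocampus, and 0.531, 0.845 and 1.15 CPM in prefrontal cortex. All hippocampal libraries were above all others, and striatum and prefrontal cortex overlapped. The log2 difference was 2.81 ± 0.16 for hippocampus against prefrontal cortex and -4.14 ± 0.18 for striatum against hippocampus (adjusted p = 1.37e-16 and 7.09e-20). Striatum was also below prefrontal cortex, by -1.33 ± 0.19 (adjusted p = 2.66e-07), although the striatal values rest on only 5 to 26 reads per WT library.

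Ntf5 (neurotrophin-4, the other TrkB ligand) had few reads in every region and stayed between 0 and 0.523 CPM in every WT library. It was lower in striatum than in hippocampus (-1.555 ± 0.343, adjusted p = 1.90e-04, edgeR) and than in prefrontal cortex (-1.095 ± 0.361, adjusted p = 0.00771). The striatal values rest on 0 to 11 reads per WT library.

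The receptor kinase genes Ntrk2 and Ntrk3 differed little between regions. Ntrk2 had lowest, median and highest levels of 607, 662 and 763 CPM in WT striatum, 577, 633 and 661 CPM in WT hippocampus, and 606, 692 and 864 CPM in WT prefrontal cortex. All 3 groups overlapped. Hippocampus was below prefrontal cortex by -0.17 ± 0.05 (adjusted p = 0.00400), under the fold required for a call, and striatum differed from hippocampus by 0.08 ± 0.05 (adjusted p = 0.171) and from prefrontal cortex by -0.09 ± 0.05 (adjusted p = 0.111).

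Ntrk3 was highest in hippocampus. It had 203, 229 and 247 CPM as lowest, median and highest in WT striatum, 254, 267 and 280 CPM in WT hippocampus, and 178, 214 and 273 CPM in WT prefrontal cortex. Each striatal library was below each hippocampal one, and prefrontal cortex overlapped with both. The differences were -0.23 ± 0.05 for striatum against hippocampus (adjusted p = 2.10e-04) and 0.34 ± 0.05 for hippocampus against prefrontal cortex (adjusted p = 9.44e-07), both past the adjusted threshold of 0.05 but under a log2 fold of 1. Striatum and prefrontal cortex, next to each other in the order, differed by 0.10 ± 0.05 (adjusted p = 0.0731).

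The p75 receptor gene Ngfr was highest in striatum. Its lowest, median and highest levels in WT libraries were 5.06, 5.76 and 9.66 CPM in striatum, 1.29, 1.70 and 2.40 CPM in hippocampus, and 0.444, 0.849 and 1.13 CPM in prefrontal cortex. None of the 3 groups overlapped with another. The log2 difference was 1.95 ± 0.14 for striatum against hippocampus, 3.02 ± 0.15 for striatum against prefrontal cortex and 1.07 ± 0.15 for hippocampus against prefrontal cortex (adjusted p = 4.07e-14, 3.99e-18 and 2.44e-07). The 7 cholinergic markers include Chat, Slc18a3, Slc5a7 and Lhx8. Their mean log2 CPM was 3.23 in WT striatum, -1.47 in WT hippocampus and -1.89 in WT prefrontal cortex. Their summed level had medians of 112, 10.9 and 14.9 CPM in that order, so hippocampus and prefrontal cortex ranked the other way by this measure. The order was not particular to this list, since 9 oligodendrocyte markers ranked the WT regions as Ngfr did by both measures. Their means were 8.36, 7.24 and 6.04 in striatum, hippocampus and prefrontal cortex, and their summed medians 7420, 3370 and 1560 CPM. Means of 7 oligodendrocyte precursor markers (5.23, 4.91 and 4.59) also ranked so, but those of astrocyte markers (7.03, 7.30 and 7.05) did not. The part of any of these lists in the Ngfr difference was not tested.

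With a call defined as an adjusted p under 0.05 and an absolute log2 fold of at least 1, 3 of 5 members were called for striatum against hippocampus, where 10.2% of 15826 genes were. The counts were 3 of 5 for striatum against prefrontal cortex, against 11.6% of genes, and 2 of 5 for hippocampus against prefrontal cortex, against 10.1%. Groups without overlap were found for 4, 2 and 2 members in these comparisons, where 27.5%, 33.2% and 28% of all genes had none. The same members were called in the KO libraries, and none of the 105 values recomputed for these contrasts changed a member's call.

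**Figure D2:**
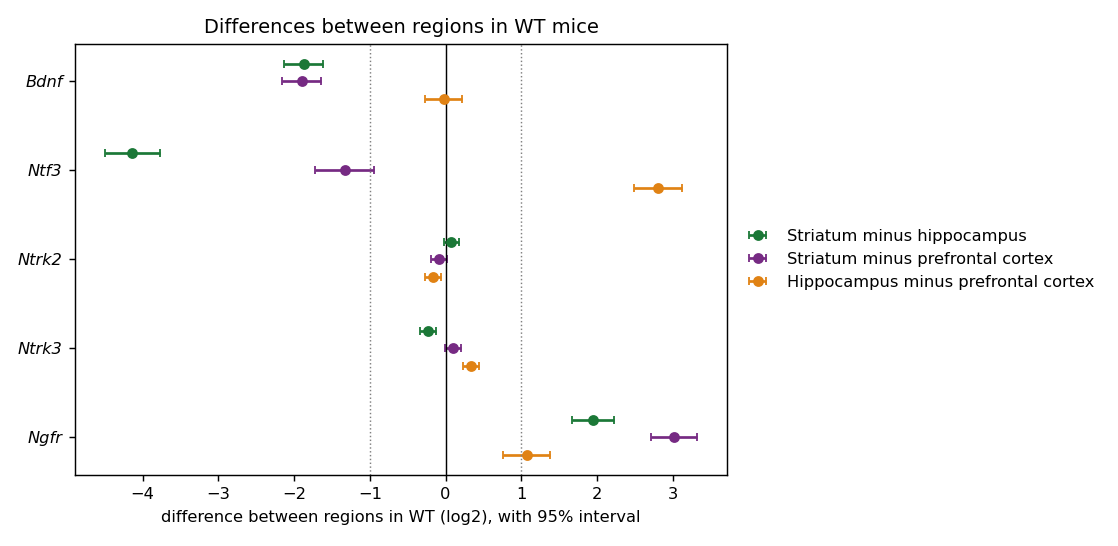
Log2 difference between regions in WT mice (horizontal axis) with its 95% interval for each gene (rows), with dotted lines at the fold of 1 required for a call. Bdnf and Ntf3 fell in striatum and Ngfr rose there, while the intervals of Ntrk2 and Ntrk3 stayed inside the dotted lines.

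KO and WT did not differ detectably in any of the 5 genes. Of 5 members, 0 passed in hippocampus, where 0.128% of 15581 genes did, 0 in prefrontal cortex (0.117% of 15376 genes), 0 in striatum (0.0514% of 15553 genes) and 0 over the 3 regions with equally numbered libraries summed (0.162% of 16676 genes; edgeR quasi-likelihood, Benjamini-Hochberg at 0.05). At an unadjusted p under 0.05 the count was also 0 in each, where 8.14%, 11.8%, 7.14% and 10.5% of all genes passed, and DESeq2 and voom called 0. KO and WT libraries overlapped for all 5 genes in each region, and 0.0321%, 0.026% and 0.0193% of all genes had no overlap in hippocampus, prefrontal cortex and striatum. The difference between regions in the genotype effect passed for 0 of 5 members and for 0.0248% of 16121 genes (3.96% at an unadjusted p under 0.05), with the smallest unadjusted p of the members, 0.168, for Bdnf.

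**Figure D3:**
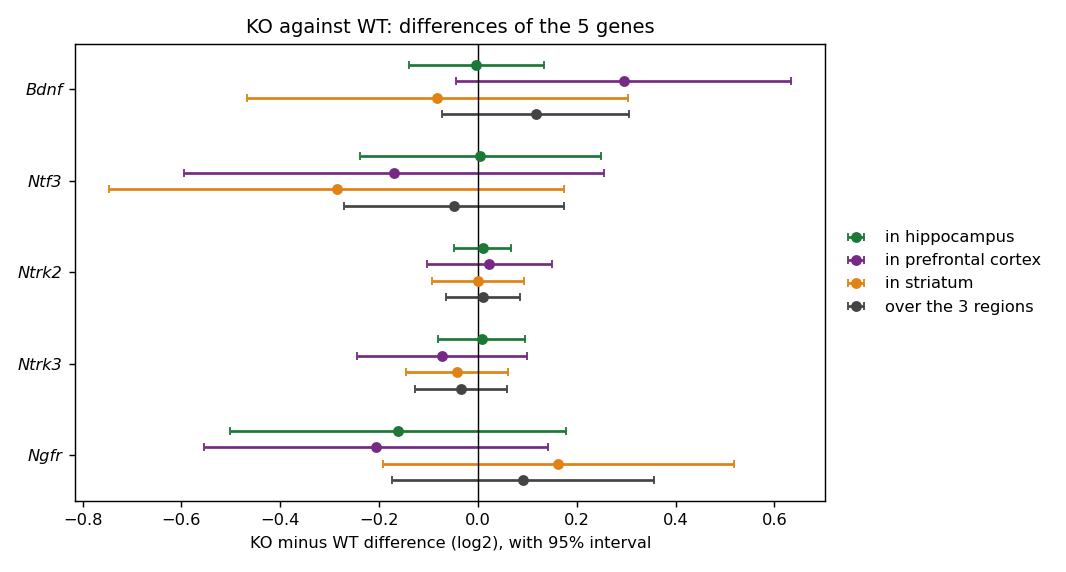
KO minus WT difference on the log2 scale (horizontal axis) with its 95% interval for each gene (rows), in each region and over the 3 regions summed. Every interval spans 0, and the intervals of Ntrk2 are the narrowest of the 5 genes in each comparison.

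The intervals set how large a difference these libraries leave possible. Ntrk2 in hippocampus ranged over 593, 634 and 657 CPM in KO libraries (lowest, median, highest) and over 577, 633 and 661 CPM in WT libraries. The groups overlapped nearly completely, and the ratio of KO to WT was 1.01 with a 95% interval from 0.968 to 1.05. Its ratio over the 3 regions was 1.01 (0.957 to 1.06). Ntrk3 in hippocampus had 230, 266 and 313 CPM in KO libraries and 254, 267 and 280 CPM in WT libraries, and its ratio was also 1.01 (0.946 to 1.07). Medians were nearly equal, but 3 KO libraries lay above the highest WT library and 3 below the lowest.

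For both kinases the other regions gave intervals of similar or larger width. Ntrk2 averaged 721 ± 67.7 CPM in KO and 705 ± 77.4 CPM in WT prefrontal cortex, and 661 ± 43.7 CPM in KO and 662 ± 50.4 CPM in WT striatum (SD, n = 10 each). Ntrk3 averaged 203 ± 30.1 CPM in KO and 212 ± 27.4 CPM in WT prefrontal cortex, and 221 ± 20.1 CPM in KO and 228 ± 15.2 CPM in WT striatum. The log2 differences were 0.02 ± 0.06 and 0.00 ± 0.05 for Ntrk2 and -0.07 ± 0.08 and -0.04 ± 0.05 for Ntrk3 (SE), with adjusted p from 0.808 to 0.999.

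Bdnf in prefrontal cortex had the smallest p of the members. Its levels were 32.3, 50.1 and 81.2 CPM in KO libraries (lowest, median, highest) and 31.0, 42.2 and 61.5 CPM in WT libraries. The groups overlapped, with 7 of 10 KO libraries above the WT median and 3 above the highest WT library. The log2 difference was 0.30 ± 0.16 (95% interval -0.04 to 0.63, p = 0.0842, adjusted p = 0.511, edgeR), and it ranged from 0.22 to 0.36 over the alternatives, with adjusted p of at least 0.275.

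Marker lists were examined in the same prefrontal libraries. The summed level of 11 immediate early genes, which neuronal activity induces, ran from 991 to 2470 CPM in KO and from 380 to 2280 CPM in WT libraries, with medians of 1740 and 1610 CPM and 0 of 11 called. Bdnf differed by 0.26 ± 0.17 after adjustment for the mean log2 CPM of these genes, an adjustment added once the data had been seen. The summed level of 10 olfactory bulb markers ran from 24.2 to 100 CPM in KO and from 27 to 191 CPM in WT libraries, with medians of 29.1 and 102 CPM, and 1 of the 10, Scgn, was called, as lower. Adjusted for a score of 4 of these genes (Eomes, Doc2g, Cdhr1 and Tbx21), likewise added after seeing the data, Bdnf differed by 0.29 ± 0.22. The uncalled prefrontal differences of Ntrk3 (-0.07 ± 0.08) and Ngfr (-0.21 ± 0.17) changed sign under this adjustment, to 0.037 ± 0.10 and 0.023 ± 0.21.

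In the other regions Bdnf averaged 43.1 ± 4.01 CPM in KO and 43.2 ± 5.40 CPM in WT hippocampus, and 11.1 ± 3.78 CPM in KO and 11.8 ± 2.68 CPM in WT striatum (SD, n = 10 each). The differences were -0.00 ± 0.07 (95% interval -0.14 to 0.13) and -0.08 ± 0.18 (-0.47 to 0.30). The hippocampal interval corresponds to a ratio of KO to WT between 0.908 and 1.10. Over the 3 regions summed Bdnf differed by 0.12 ± 0.09, a value in which striatum, with the fewest Bdnf reads, weighs least.

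Among the regions, Ntf3 had its narrowest interval in hippocampus, where its counts were highest. It averaged 5.96 ± 1.09 CPM in KO and 5.93 ± 1.25 CPM in WT hippocampus, and the log2 difference was 0.00 ± 0.12 (95% interval -0.24 to 0.25). In prefrontal cortex it averaged 0.757 ± 0.312 CPM in KO and 0.848 ± 0.176 CPM in WT, and in striatum 0.274 ± 0.0513 CPM in KO and 0.332 ± 0.141 CPM in WT. Prefrontal libraries held 11 to 56 reads and striatal ones 5 to 26, and the differences of -0.17 ± 0.21 and -0.29 ± 0.22 did not pass (adjusted p = 0.819 and 0.783, edgeR).

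Ngfr averaged 7.53 ± 2.31 CPM in KO and 6.74 ± 1.55 CPM in WT striatum, 0.722 ± 0.171 CPM in KO and 0.830 ± 0.231 CPM in WT prefrontal cortex, and 1.56 ± 0.589 CPM in KO and 1.75 ± 0.337 CPM in WT hippocampus (SD, n = 10 each). Groups overlapped in each region. The log2 differences were 0.16 ± 0.17, -0.21 ± 0.17 and -0.16 ± 0.16 in that order (adjusted p = 0.831, 0.696 and 0.829). With voom the hippocampal difference was -0.27 ± 0.14 (adjusted p = 0.471). KO replicate 2, which had 3.15 CPM, made the edgeR difference smaller, and without it the difference was -0.34 ± 0.115 (adjusted p = 0.273).

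That library also stood apart in other genes. In KO replicate 2 the cholinergic score was 0.51, where the other KO hippocampal libraries had -2.69 to -0.98, and the striatal marker score was 5.21, where the others had 2.39 to 4.53 (mean log2 CPM). WT replicate 8 had the highest Ngfr of the WT hippocampal libraries, 2.40 CPM, with scores of -0.05 and 5.18. The summed level of the 7 cholinergic markers ran from 5.31 to 20.4 CPM in KO and from 5.0 to 14.2 CPM in WT hippocampus, with 0 of the 7 at 0 in either group, and their part in the Ngfr values was not tested.

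**Figure D4:**
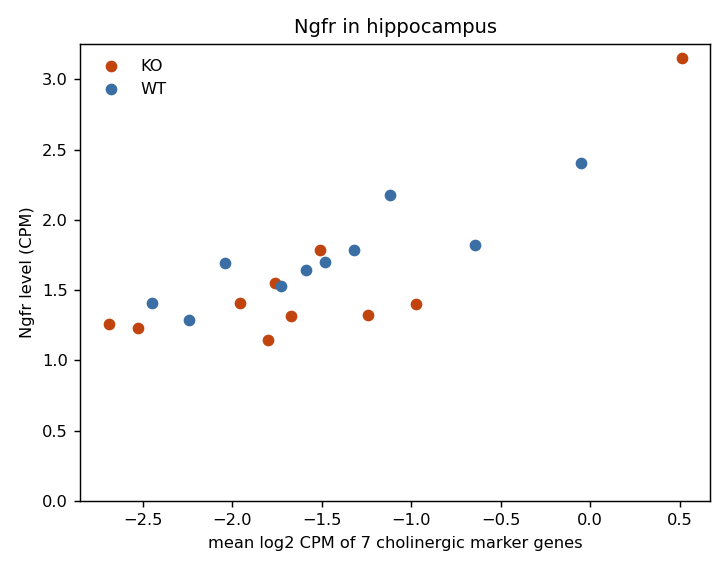
Ngfr level in CPM (vertical axis) against the mean log2 CPM of 7 cholinergic marker genes (horizontal axis) in the 20 hippocampal libraries, KO and WT in different colours. The library at the upper right is KO replicate 2, with 3.15 CPM of Ngfr, and the highest WT point is replicate 8, with 2.40 CPM.

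Few relations between the members passed within a region, and 20 libraries leave those that did not pass undecided. Of 30 relations (10 pairs in 3 regions, each library taken relative to its genotype's mean), 1 passed after Benjamini-Hochberg adjustment by Pearson's r and 3 by Spearman's rho. Ntrk2 and Ntrk3 rose and fell together in prefrontal cortex (r = 0.758, permutation p = 0.000180, adjusted p = 0.00540; rho = 0.674, permutation p = 0.00143, adjusted p = 0.0214; n = 20 libraries, 2-sided, permuted within genotype). The r was 0.646 in the KO and 0.901 in the WT libraries, and 0.567 without the 2 libraries farthest from the median of Ntrk2. In hippocampus r was 0.0742 and in striatum 0.254 for the same pair (adjusted p = 0.883 and 0.490), and the difference between regions was not tested. By rho alone, Ngfr ran against Ntf3 (rho = -0.623, permutation adjusted p = 0.0432) and against Ntrk3 (rho = -0.669, permutation adjusted p = 0.0214) in hippocampus, with r of -0.488 and -0.485. Hippocampal libraries were also ranked by striatal marker score, a step added after seeing the data. The 5 highest were KO replicates 2 and 6 and WT replicates 1, 8 and 9 (scores of 4.23 to 5.21). All 5 had Ntf3 and Ntrk3 below the mean of their group, and 4 of the 5 had Ngfr above it. KO replicate 10, with a score of only 3.39, had the lowest Ntf3 and Ntrk3 of the KO libraries (4.30 and 230 CPM). Its Ngfr was 1.78 CPM, above the KO mean of 1.56 CPM. The part of that score in these relations was not tested.

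Ntrk2 and Ntrk3 are long genes, spanning 327.4 and 562.1 kb, and the level of long genes varied most in prefrontal cortex. The mean centred log2 CPM of the 2413 genes that span at least 100 kb, Ntrk2 and Ntrk3 among them, ran from -0.18 to 0.11 over the prefrontal libraries, from -0.06 to 0.06 over the hippocampal and from -0.05 to 0.06 over the striatal ones. Its lowest library, KO replicate 10, was also the lowest for both genes, with 573 CPM of Ntrk2 and 153 CPM of Ntrk3. Adjusted for this mean, which was also added after seeing the data, the r of the pair was 0.418 (permutation p = 0.0771).

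**Figure D5:**
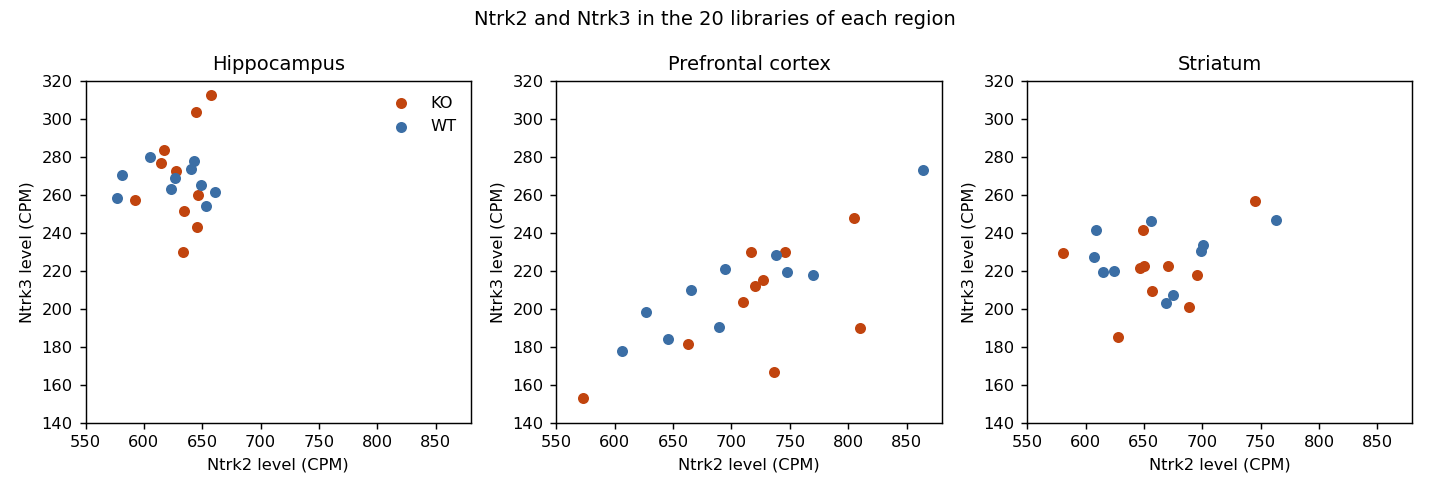
Ntrk3 level (vertical axis, CPM) against Ntrk2 level (horizontal axis, CPM) in the 20 libraries of each region, KO and WT in different colours, on the same axes, which do not start at 0. The 2 genes ran together in prefrontal cortex, where r was 0.758 after centring on genotype.

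The genes of most similar pattern were ranked by Pearson's r of log2 CPM over the 60 libraries among 16120 genes, as a description. The libraries share regions, and equally numbered ones may share animals, so they are not 60 independent points. For Bdnf the leading genes were Olfm1 (0.973), the activity-regulated growth gene Nrn1 (0.972) and Ptgs2 (0.971), which encodes the inducible cyclooxygenase. For Ntf3 they were the kainate receptor gene Grik4 (0.973), Pip5k1b (0.968) and Lct (0.967), for Ngfr Pard3 (0.971), Fam57a (0.971) and Erbin (0.968), for Ntrk3 Snx12 (0.915), the NMDA receptor gene Grin2b (0.901) and Dzip3 (0.888), and for Ntrk2 Usp31 (0.811), Kif21a (0.798) and Ttbk1 (0.794).

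After each library was centred on the mean of its genotype and region, Bdnf was closest to Ptgs2 (0.820), Khdrbs3 (0.777) and Lingo1 (0.776). The r of Bdnf with Ptgs2 was 0.750 within hippocampus, 0.852 within prefrontal cortex and 0.921 within striatum. Within hippocampus it was only 0.163 with Khdrbs3 and 0.317 with Lingo1, against 0.804 and 0.833 within prefrontal cortex. Ntrk2 was closest to the Argonaute gene Ago2 (0.807), Soga3 (0.796) and the synaptic scaffold gene Shank2 (0.775), with 0.713, 0.222 and 0.317 within hippocampus, and Ntrk3 to Appl1 (0.857), an adaptor gene of endosomes, Snx12 (0.823) and Dzip3 (0.820). Ngfr was closest to Fam57a (0.672), the glycine transporter gene Slc6a9 (0.665) and Clic4 (0.645). Ntf3 had the weakest likenesses over the 60 centred libraries, with Arsi (0.554), Parvg (0.527) and Capn5 (0.517). Within hippocampus, where its counts were highest, r was 0.847, 0.844 and 0.318 with these genes. It was 0.472, 0.450 and 0.424 within prefrontal cortex and 0.541, 0.502 and 0.675 within striatum.

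The rest of the pathway was taken from 8 lists of 117 genes, of which 116 were in the table and 113 to 114 passed the filter. Between KO and WT, 0 of them were called in each of the 3 regions and over the regions summed (edgeR), with 14 in hippocampus, 14 in prefrontal cortex, 11 in striatum and 13 in the sum at an unadjusted p under 0.05. These were 12.4%, 12.4%, 9.73% and 11.4% of the pathway genes tested, beside 8.14%, 11.8%, 7.14% and 10.5% of all genes in the same comparisons. Their median log2 differences were 0.01, 0.02, -0.00 and 0.01, and those of all tested genes 0.00, -0.00, 0.00 and 0.00. DESeq2 called Sorcs2 (-0.14) and Npy (0.27) among the 222 genes it called in prefrontal cortex, voom called Npy (0.26) among 55 there, and each called 0 in the other comparisons. The interaction called 0, with 2 (1.75%) at an unadjusted p under 0.05, where 3.96% of all genes passed.

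The 2 genes of smallest p in 7 of the lists were as follows, none of them past the adjusted threshold. Among partners of p75 and sortilin, the sorting receptor gene Sorcs2 differed by -0.14 ± 0.04 (SE, adjusted p = 0.124, edgeR) in prefrontal cortex. The p75 co-receptor gene Lingo1 differed there by 0.17 ± 0.06. Sorcs2 is on chromosome 5 as Adgrl3 is, and whether this bears on its difference was not tested. Among genes of precursor processing, the protease gene Mmp9 differed by -0.44 ± 0.15 in striatum and the convertase gene Pcsk7 by -0.10 ± 0.04 in hippocampus.

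Among Trk adaptors, Sh2b1 differed by 0.09 ± 0.02 in hippocampus and Hap1, which takes part in transport of Trk and BDNF vesicles, by -0.12 ± 0.03 in prefrontal cortex. In the kinase branches, the ribosomal S6 kinase gene Rps6ka3 differed by 0.09 ± 0.03, Nras by 0.05 ± 0.02 and Akt2 by 0.11 ± 0.03 over the regions summed, and Pik3r1 by -0.11 ± 0.04 in striatum. Among regulators of Bdnf transcription, Mef2d differed by 0.09 ± 0.03 in prefrontal cortex and Creb1 by 0.11 ± 0.05 in hippocampus. Among genes known to respond to TrkB, the neuropeptide gene Npy differed by 0.26 ± 0.07 in prefrontal cortex (adjusted p = 0.121) and the synaptic scaffold gene Homer1 by 0.28 ± 0.09 in striatum (adjusted p = 0.514). The 16 TrkB-responsive genes had median differences of 0.03 in hippocampus, 0.14 in prefrontal cortex, 0.11 in striatum and 0.12 in the sum, with 0 called. Several of these genes are also immediate early genes, whose prefrontal levels are given above.

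Between regions, 14 of 114 pathway genes were called for striatum against hippocampus (12.3%, 9 higher and 5 lower), where 10.2% of all genes were. For striatum against prefrontal cortex it was 17 (14.9%, 4 higher and 13 lower), against 11.6% of all genes, and for hippocampus against prefrontal cortex 16 (14%, 2 higher and 14 lower), against 10.1%. Among the 16 partners of p75 and sortilin, the sorting receptor gene Sorcs1 was higher in striatum than in hippocampus (2.16 ± 0.07) and lower in hippocampus than in prefrontal cortex (-1.79 ± 0.07). The Nogo receptor gene Rtn4r was lower in striatum than in hippocampus (-1.41 ± 0.08) and than in prefrontal cortex (-2.06 ± 0.08). Of 11 tested processing genes, the convertase gene Pcsk1 was lower in striatum (-1.22 ± 0.11) and in hippocampus (-1.27 ± 0.11) than in prefrontal cortex.

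The kinase gene Rps6ka5 was higher in striatum than in hippocampus (1.45 ± 0.04) and than in prefrontal cortex (2.09 ± 0.05), and the adaptor gene Gab1 was higher in striatum than in prefrontal cortex (1.52 ± 0.09). None of the 12 genes of the PI3K-Akt branch was called between any regions. Of 17 regulators of Bdnf, the transcription factor genes Mef2c (-1.83 ± 0.07 in striatum and -2.43 ± 0.07 in hippocampus) and Npas4 (-1.68 ± 0.30 and -2.29 ± 0.31) were lower than in prefrontal cortex. Of the 16 TrkB-responsive genes, 9 were lower in hippocampus than in prefrontal cortex and 0 higher, where 4.16% of all genes were lower and 5.98% higher. They included Egr2 (-2.75 ± 0.50), the corticotropin-releasing hormone gene Crh (-1.92 ± 0.17) and Fos (-1.91 ± 0.40), while Bdnf itself was called neither way between these regions. The immediate early genes, some of which are on both lists, moved with them, with 10 of 11 lower in hippocampus than in prefrontal cortex (median -1.54). In striatum against hippocampus, 3 of the 16 TrkB-responsive genes were higher and 1 lower, where 5.12% of all genes were higher and 5.06% lower. Of the 11 immediate early genes, 3 were higher and 0 lower there. For striatum against prefrontal cortex, 0 of the 16 were higher and 5 lower, where 7.07% of all genes were higher and 4.54% lower. Of the 11 immediate early genes, 0 were higher and 6 lower in that contrast.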

How the data were processed

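The deposited file holds raw counts of reads per gene as whole numbers, which the authors made for 21950 protein-coding genes in 60 libraries. The submitters' processing notes name STAR 2.5.2b, GRCm38, bedtools, FastQC 0.11.4, DESeq2 1.16.1 and cutadapt 1.16, with no role. Whether counting used strand is not stated there. Noncoding genes that the annotation places inside or opposite Bdnf, Ntrk2 and Ntrk3 could therefore share reads with them, and no other protein-coding gene overlaps a member. Library totals were 38985577 to 51387833.

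The main test was edgeR 4.0.16 (R 4.3.3): quasi-likelihood F test, TMM scaling, filterByExpr, robust dispersion, Benjamini-Hochberg adjustment over all tested genes at 0.05, and for regions an absolute log2 fold of at least 1. KO and WT were compared in the 20 libraries of a region, and over the 3 regions on counts summed over equally numbered libraries (20 sums). A region with more reads of a gene weighs more in its sum, so a summed difference is not the mean of the regional ones. The interaction used all 60 libraries and the regional contrasts the 30 WT libraries. No label says that libraries of a group are separate mice, so p-values measure the spread between libraries. Levels are CPM after TMM scaling over 60 libraries, and log2 CPM for marker scores and correlations carries a prior count of 0.5. Correlations were permuted 100000 times within genotype. Alternatives were DESeq2 1.42.0, voom with quality weights (limma 3.58.1), RLE size factors, no filter, 1 CPM in at least 10 libraries, all 60 libraries in 1 fit, the replicate block and leaving out each library. The scripts were tested on simulated data.

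Named genes are the members, Adgrl3, the 3 genes most like each member, the 2 of smallest p per pathway list over the KO and WT comparisons, and up to 3 called per list between regions. Results of some single genes are not reported here, Scgn and the genes of the olfactory bulb score were named after their values were seen, and members and lists were chosen with earlier results of these data known.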

Additional observations from a re-analysis of the deposited data

Results flagged for a closer look

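In 30 groups of 10 libraries (the 5 genes in each genotype and region), a library stood apart by Dixon's criterion at 95% in 2, and chance gives about 1 in 20 groups. Ngfr in KO hippocampus had 3.15 CPM in replicate 2, where the other libraries had 1.14 to 1.78 CPM. Ntrk3 in WT prefrontal cortex had 273 CPM in replicate 2, where the others had 178 to 228 CPM, and this library was also the highest WT prefrontal library for Ntrk2 (864 CPM) and Bdnf (61.5 CPM).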

How the results depend on the processing

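No member was called between KO and WT in any of the 552 values recomputed under the alternatives, and the smallest adjusted p was 0.273 (Ngfr in hippocampus without KO replicate 2).
Counts over all genes moved more. In hippocampus 20 became 47 with DESeq2, in prefrontal cortex 18 became 222 with DESeq2, 55 with voom, 208 in the fit of 60 libraries and 6 with the olfactory bulb score, and in striatum 8 became 28 with DESeq2 and 22 in the fit of 60 libraries. The summed comparison's 27 became 131 with DESeq2, 649 with the 60 libraries and a region term, and 190 with the summed unit as a random block. The interaction's 4 became 17 with DESeq2, 1 with RLE, 1 without a filter, 1 with the 1 CPM filter and 0 with voom. Pearson's 1 passing correlation became 3 with Spearman's rho. Leaving out a library gave 12 to 26, 9 to 68 (68 without KO replicate 7), 5 to 15 (15 without WT replicate 5) and 19 to 48 (48 without KO replicate 5) in the 4 comparisons.
With the region term, Mmp9, Akt2, Sh2b1, Shc2, Homer1 and Rps6ka3 of the pathway were called, and with the random block Akt2 and Sh2b1. These fits count regions of a possible single animal as separate or correlated samples, and the cause of the larger counts was not tested.
With the replicate number as a block the counts were 5, 10, 3 and 12. For the interaction the block was genotype and replicate number together, and the count was 0. Equal numbers deviated together (r over 0.1) in 56 of 60 pairs between regions and 5 of 30 between KO and WT, and in 49 of the 60 and 2 of the 30 a library correlated best with its own number, a hint from the data and not from the design. Neither block changed a member's call.
Uncalled differences of the members changed sign as follows. Under the replicate number block Bdnf in hippocampus was 0.0020. With the olfactory bulb score Ntrk3 was 0.037 and Ngfr 0.023 in prefrontal cortex. Ntrk2 in striatum was -0.00020 (DESeq2), -0.00045 (RLE) and -0.0020 (60 libraries). Summed Ntf3 was 0.00086 with voom and summed Ngfr -0.040 with the region term, and Bdnf in hippocampus against prefrontal cortex was 0.042 with voom. Leaving out a library spanned -0.036 to 0.026 for Bdnf, -0.041 to 0.074 for Ntf3, -0.0074 to 0.018 for Ntrk2 and -0.017 to 0.030 for Ntrk3 in hippocampus, -0.017 to 0.027 for Ntrk2 in striatum, and -0.0034 to 0.034 for Ntrk2 and -0.093 to 0.021 for Ntf3 summed. Among correlations that did not pass, Ntrk2 with Ntrk3 in hippocampus had rho = -0.0406, and without the 2 farthest libraries r was -0.115 (Ntrk2 with Ngfr, hippocampus), 0.0709 (Bdnf with Ntrk3) and 0.169 (Ntf3 with Ntrk2) in prefrontal cortex, and -0.129 (Ntrk2 with Ntrk3, striatum).
Counts were lowest for Ntf3 outside hippocampus (5 to 56 reads per library) and Ngfr in prefrontal cortex (18 to 49), but for Ngfr the SE there (0.17) was like that in striatum (0.17), where libraries held 159 to 548 reads.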
